A study of Mus musculus with 36 samples.

Results

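Fibrillins, elastin and the proteins that bind them were followed through mouse heart development. The set held 10 of the 20701 genes with an identifier on the array, chosen by symbol: the fibrillins Fbn1 and Fbn2, elastin (Eln), the fibulins Fbln1, Fbln2 and Fbln5, the microfibril-associated genes Mfap4 and Mfap5, dermatopontin (Dpt) and matrix Gla protein (Mgp). Every row of the expression table that carries 1 of these symbols was kept, which gave 20 probe sets of the 45101 on the array. Probe sets are groups of short probes designed against the same transcript. Each gene is described below by its lead probe set, the one with the highest mean over all arrays, with its other probe sets given where they differ.

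Whole-heart RNA of OF1 (Oncins France 1) mice, for which the labels name no genetic or drug treatment, was measured on Affymetrix Mouse430 2.0 arrays. There were 36 arrays, 3 from each of 12 stages: embryonic days E10.5 to E19.5 at daily intervals, young adult (10 weeks old) and old adult (14 months old in the description of the series, while the methods of the study give a younger age). The earliest arrays, those of E10.5 and E11.5, came from mixed male and female hearts. From E12.5 each stage has 1 female array, 1 male array and 1 of pooled male and female hearts, so that the spread within a stage includes any difference of sex. Their number limits the precision of every stage mean.

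Elastic fibres are built in the extracellular space. Fibrillins assemble into microfibrils, tropoelastin is laid down on this scaffold with the help of fibulins, and lysyl oxidases cross-link it into an insoluble core. In the heart such fibres lie in the great vessels, the valves, the coronary vessel walls, the endocardium and the epicardium, and elastin is made mostly before and soon after birth and turns over very slowly.

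All values below are log2 intensities, so a difference of 1 is a change of 2-fold, and a level of 1 gene was never set against that of another. Stage means were compared with limma, a linear model that moderates the variance of each probe set with that of all others, fitted on all 36 arrays and all probe sets, and its p-values were adjusted by the Benjamini-Hochberg method over the whole table. The stringent rule used here, after the study, asks for an adjusted p under 1e-05, a difference above 2 (4-fold) in either direction and, in 1 stage or more, a mean over 5. A milder rule, an adjusted p under 0.05, served where changes were small. The table has no detection calls, so whether a value under 5 lies above background is unknown, and a fold against such a value may be compressed.

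The labelled tissue was checked with marker genes. All 9 cardiomyocyte markers had a stage mean above 5 (values from 7.33 to 13.9). The labels describe extraction from liver, but 0 of 6 hepatocyte markers, Alb and Afp among them, had a stage mean above 5 (2.86 to 4.54). Hybridization controls are transcripts of bacterial and bacteriophage genes spiked into every labelled sample, and they moved with stage. Their mean level went from 10.2 in the earliest hearts over 11.4 in those of E19.5 to 12.3 in young adult, and was 11.6 in old adult. Centring each array on its expressed probe sets moved values by -0.32 to 0.31.

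Promoter windows in RefSeq (GRCm38.p6, from 250 bases before a gene's start to 50 after it) were available for 5 of the 10 genes, in 7 windows. A window is shown for Dpt, the gene with the widest range over the 12 stages, for Fbln5, the gene with the largest step within 1 day, and for Fbn1, the gene with the narrowest range, each 5′ to 3′ on the strand of the gene. Capitals mark the TATA box letters TATAAA and the GC box letters GGGCGG, searched on both strands.
Dpt, chr1:164796413-164796712, plus strand: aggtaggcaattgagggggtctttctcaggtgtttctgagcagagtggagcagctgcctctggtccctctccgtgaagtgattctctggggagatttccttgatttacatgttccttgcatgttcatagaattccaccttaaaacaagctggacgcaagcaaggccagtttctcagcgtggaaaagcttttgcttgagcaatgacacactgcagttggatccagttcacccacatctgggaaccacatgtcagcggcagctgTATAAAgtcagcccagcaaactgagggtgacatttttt
Fbln5, chr12:101819070-101819369, minus strand: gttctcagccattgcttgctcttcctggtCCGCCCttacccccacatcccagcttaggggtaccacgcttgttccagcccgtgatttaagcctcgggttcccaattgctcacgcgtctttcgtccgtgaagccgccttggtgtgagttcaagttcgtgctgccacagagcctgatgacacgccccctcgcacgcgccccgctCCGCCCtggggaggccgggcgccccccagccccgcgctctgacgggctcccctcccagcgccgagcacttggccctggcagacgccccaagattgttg
Fbn1, chr2:125506389-125506688, minus strand: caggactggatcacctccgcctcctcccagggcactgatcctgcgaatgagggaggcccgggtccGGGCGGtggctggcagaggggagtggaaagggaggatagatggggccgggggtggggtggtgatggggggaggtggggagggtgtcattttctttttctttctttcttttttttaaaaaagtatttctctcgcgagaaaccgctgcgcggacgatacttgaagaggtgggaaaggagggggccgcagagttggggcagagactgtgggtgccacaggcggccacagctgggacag

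The window of Dpt held 4 CpG dinucleotides, a GC content of 48.7%, 1 TATAAA, whose first base lies at position 13 after the annotated start, and 7 matches to the E-box letters CANNTG. That of Fbln5 held 24 CpG, 65.7% GC, 2 GC boxes and 2 E-boxes, while a further annotated start of Fbln5 had 8 CpG and none of these motifs. That of Fbn1 held 14 CpG, 60.3% GC, 1 GC box and 1 E-box. Over all 32851 windows, 13.6% held TATAAA, 35.7% GGGCGG and 72.3% CANNTG, the median window had 7 CpG and 52.7% GC, and no motif overlapped another in the windows of these genes. These are letter matches, not sites of binding.

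Between E10.5 and young adult heart, 7 of the 10 genes passed the stringent rule, against 6.53% of all probe sets. Fbn2 was 38.2-fold higher at E10.5. Dpt, Mgp, Fbln5, Mfap5, Mfap4 and Fbln1 were lower, with log2 differences of -8.47, -7.88, -4.11, -4.08, -3.07 and -2.11. The median log2 difference of the 10 genes was -2.59, and that of all probe sets -0.19. Over the 20685 probe sets with a mean over 5 in 1 stage or more, it was 0.41. All 10 lead probe sets are among these. The shares given here are over all probe sets and count calls in either direction. They include probe sets that the stringent rule cannot call for their low level. At E19.5, the last embryonic day sampled, 4 of 10 passed (1.45% of all probe sets): Fbn2 and Eln were higher than in young adult, by 5.07 and 3.28, and Fbln1 and Mgp lower, by -3.29 and -2.84. With the median of all probe sets of a gene, 2 genes were called, since Eln (1.68) and Fbln1 (-1.68) no longer passed. Eln has 2 probe sets, so its median averages the lead with another whose stage means were all under 5. On the lead probe sets the median of the 10 genes at E19.5 was -0.35, beside -0.04 over all probe sets and 0.13 over the expressed ones.

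**Figure D1:**
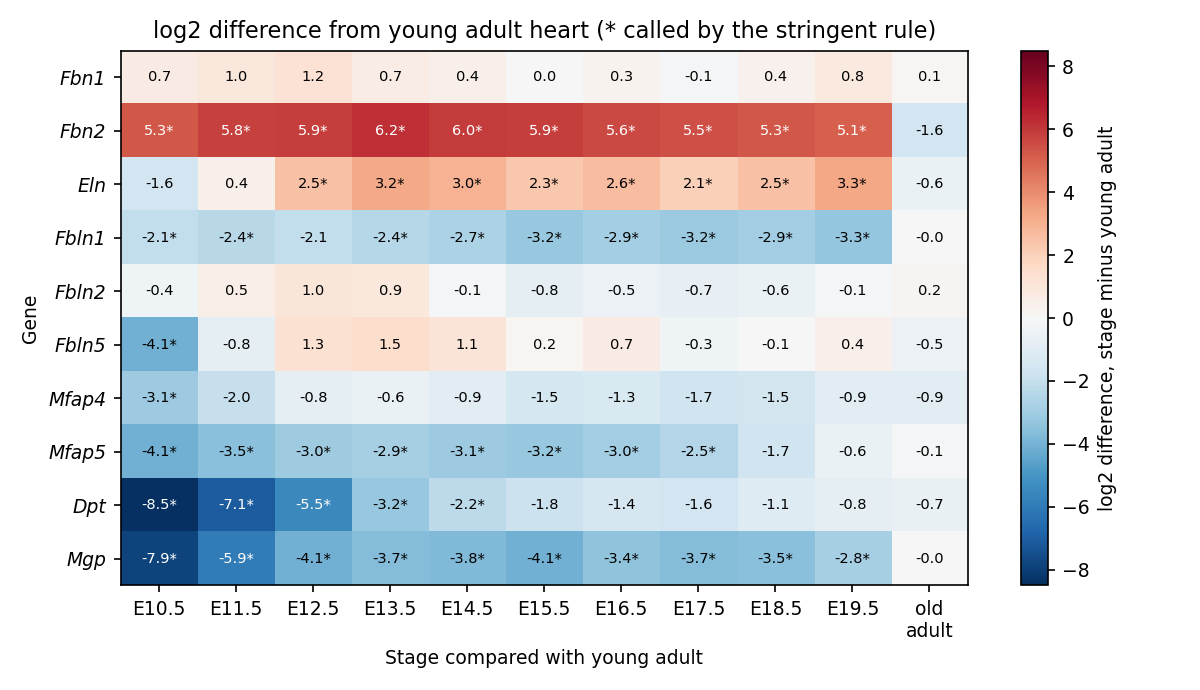
Mean log2 difference of each stage from young adult heart for the 10 genes (rows) at the other 11 stages (columns), with red higher and blue lower than young adult and an asterisk where the stringent rule was met. Fbn2 is red at all 10 embryonic stages (5.07 at E19.5), Eln turns from -1.65 to 3.28 between E10.5 and E19.5, and Dpt pales from -8.47 to -0.81.

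At the stages between, the stringent rule was met by 5 genes at E11.5 (5.39% of all probe sets), 5 at E12.5 (5.12%), 6 on each of the next days, E13.5 (4.44%) and E14.5 (4.17%), then 5 for E15.5 (4.03%), 5 for E16.5 (3.46%), 5 for E17.5 (2.72%) and 4 for E18.5 (2.46%). Fbn2 was called higher than in young adult at all 10 embryonic stages and Mgp called lower at all 10. Eln was called higher from E12.5 on. Fbln1 was called lower at every embryonic stage except E12.5 (adjusted p = 1.3e-05), Mfap5 from E10.5 to E17.5 and Dpt from E10.5 to E14.5. Fbn1 and Fbln2 were called at no stage. All these comparisons share the 3 young adult arrays.

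Within the embryonic period, 6 of 10 genes differed between E10.5 and E19.5 by the stringent rule. Of all probe sets 2.18% did, 315 lower and 668 higher at E10.5. All 6 genes were lower at E10.5: Dpt by -7.66, Mgp by -5.04, Eln by -4.93, Fbln5 by -4.51, Mfap5 by -3.52 and Mfap4 by -2.16. The call of Mfap4 was lost in a fit of the compared stages alone (-2.16, adjusted p = 8.6e-05) and with the title prefix as a term (-2.07, adjusted p = 0.0026). That prefix, the word heart in the sample titles, varies within a stage only at E16.5, where the female array alone has it. Its term therefore rests on that array against the male and mixed ones. It cannot be told apart from sex there, and its error enters comparisons of earlier with later stages. The median of the 10 genes was -2.84, beside -0.15 over all probe sets and 0.21 over those with a stage mean over 5. Fbn1 (-0.14, adjusted p = 0.63), Fbn2 (0.19, 0.53, turning to -0.095 after quantile renormalization and -0.16 after centring) and Fbln2 (-0.23, 0.39) did not pass the milder rule either.

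Fibrillin 2 (Fbn2), known as the fibrillin of developing tissue, was high on every embryonic array and low on every adult one. Its lead probe set read 10.29, 10.17 and 10.66 on the E10.5 arrays, 11.35, 11.43 and 11.28 at E13.5 and 10.21, 10.02 and 10.34 at E19.5. In young adult hearts it read 4.38, 5.04 and 5.95, and in old adult hearts 4.06, 3.21 and 3.26. On this probe set no adult array reached 6 and no embryonic array was under 10, and the stage means stayed within 1.16 of each other over the 10 embryonic days. The difference from young adult was 5.25 (SE 0.24) at E10.5 and 5.07 at E19.5 (adjusted p 8.9e-18 and 2.0e-16). The other Fbn2 probe set gave 6.70 and 4.91 for the same comparisons, and it also declined before birth, with means of 9.89 (SD 0.26, n = 3) at E10.5 and 8.10 (SD 0.44, n = 3) at E19.5. Its slope over the embryonic days was -0.26 per day (limma adjusted p = 1.1e-11), against -0.06 per day for the lead probe set, so the probe sets differ on the size of the embryonic decline.

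Fibrillin 1 (Fbn1), the fibrillin of mature microfibrils and the gene mutated in Marfan syndrome, had the narrowest range of the 10 genes, with stage means between 8.65 at E17.5 and 9.95 at E12.5. It read 9.87, 10.11 and 9.88 at E12.5, 8.90, 8.62 and 8.79 at E15.5 and 8.34, 8.73 and 9.09 in young adult. Ordered by level, every stage overlapped its neighbour on single arrays. Its difference from young adult was 1.23 at E12.5 (adjusted p = 6.3e-05), 0.84 at E19.5 (adjusted p = 0.0069) and 0.70 at E10.5 (adjusted p = 0.012), all short of the stringent rule. With the hybridization control level as a covariate the E10.5 value became -0.79, so its direction depends on that choice. Of its 3 other probe sets, the second by mean level was lower in adult hearts, with means of 8.02 (SD 0.13, n = 3) at E19.5, 7.32 (SD 0.50, n = 3) in young adult and 6.09 (SD 0.30, n = 3) in old adult. The remaining Fbn1 probe sets had stage means of at most 3.92.

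Elastin (Eln), the elastic core itself, had its lowest stage mean at E10.5, where its arrays were all under 5 and read 4.62, 4.69 and 4.58. A day later, at E11.5, they read 6.06, 7.13 and 6.92, then 8.80, 8.72 and 8.71 at E12.5 and 9.86, 9.90 and 8.72 at E13.5. The arrays of E10.5, E11.5 and E12.5 did not overlap, and no embryonic mean after E12.5 exceeded 9.55. The steps were 2.08 from E10.5 to E11.5 and 2.04 from E11.5 to E12.5 (adjusted p 2.5e-04 and 0.0022). Eln then stayed between stage means of 8.33 and 9.55 until E19.5 (9.87, 9.93 and 8.87). In young adult it read 6.25, 6.21 and 6.38, below every array from E12.5 to E19.5, and the E19.5 mean was 9.69-fold that of young adult (adjusted p = 8.5e-10). E10.5 was lower than young adult by -1.65 (adjusted p = 3.8e-05), so the earliest embryonic hearts and the adult hearts both lay below the fetal level. The second probe set of Eln did not show this course: its differences were -0.56 for E10.5 and 0.07 for E19.5 against young adult. Its stage means lay between 3.93 (E10.5) and 4.57 (E19.5), under 5 at every stage, so the course rests on the lead probe set.

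**Figure D2:**
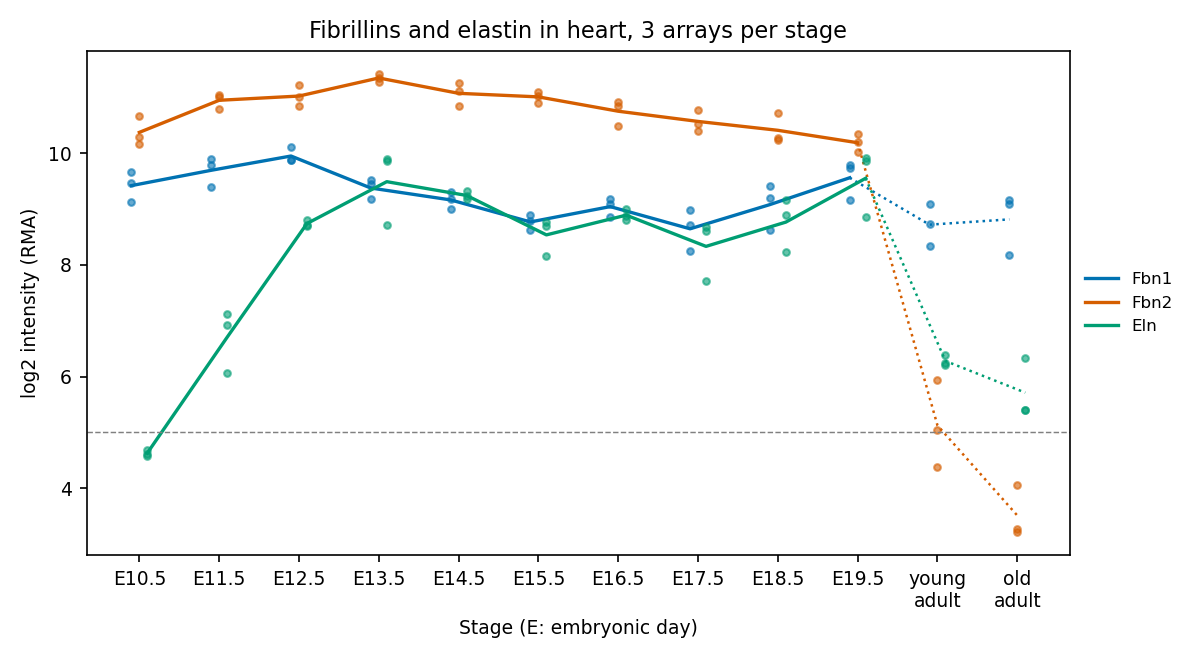
log2 intensity (vertical axis) of Fbn1, Fbn2 and Eln on each of 3 arrays per stage (points) at 12 stages (horizontal axis), with lines through stage means, dotted from E19.5 to the adult stages, and a dashed line at 5. Fbn2 falls from 10.2 at E19.5 to 5.12 in young adult, Eln climbs from 4.63 at E10.5 to 8.74 at E12.5, and Fbn1 stays between 8.65 and 9.95.

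Fibulin 5 (Fbln5), which binds tropoelastin and is needed to form elastic fibres, showed the largest step within 1 day. It read 4.06, 4.07 and 4.06 on E10.5 arrays, 6.82, 8.12 and 7.25 on E11.5 arrays and 9.50, 9.52 and 9.46 at E12.5. The arrays of these 3 days did not overlap, and the first step was 10.1-fold (log2 3.33, SE 0.33, adjusted p = 3.7e-07). Fbln5 peaked at E13.5 (mean 9.64, SD 0.62, n = 3) and stood at 8.57 (SD 0.50, n = 3) at E19.5 and 8.17 (SD 0.49, n = 3) in young adult. Unlike Eln, its E19.5 level did not pass the test against young adult (0.40, adjusted p = 0.40). The direct comparison of the courses of Eln and Fbln5 was not tested. The second Fbln5 probe set had stage means between 2.64 (E10.5) and 3.30 (E17.5), so the large step rests on the lead probe set.

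Fibulin 2 (Fbln2), a fibulin of the endocardial cushions and vessel walls, was highest at E12.5, with arrays at 9.06, 8.94 and 9.07, and lowest at E15.5, with arrays at 7.43, 7.31 and 7.05. Its rise from E10.5 (7.35, 7.80 and 7.79) to E11.5 (8.56, 8.55 and 8.57) was 0.91 (adjusted p = 0.019). Its drop of -0.97 from E13.5 to E14.5 had an unadjusted p of 9.1e-05 and an adjusted p of 0.11. At E19.5 it read 8.16, 8.14 and 7.33 and in young adult 7.95, 7.77 and 8.35, which overlap. The second Fbln2 probe set had stage means between 2.58 (E10.5) and 3.56 (E11.5) and did not show the E12.5 peak.

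Fibulin 1 (Fbln1), found in basement membranes and elastic fibres, was measured differently by its probe sets. The lead probe set read 6.06, 6.03 and 5.45 at E10.5, then 5.02, 4.85 and 4.13 by E19.5, and 7.84, 7.57 and 8.46 in young adult, so that every young adult array lay above every embryonic array. The second by mean level read 7.41, 7.55 and 6.37 at E10.5, then 4.78, 4.59 and 4.41 by E19.5, and 5.83, 6.40 and 6.86 in young adult. It fell during embryonic life (2.52 higher at E10.5 than at E19.5, adjusted p = 7.5e-06) and its E10.5 level was not below that of young adult (0.75, adjusted p = 0.10). Both probe sets were lower at E19.5 than in young adult, by -3.29 and -1.77 (adjusted p 1.5e-08 and 9.9e-04), and the direction at E10.5 rests on the choice of probe set: the lead gave -2.11 (adjusted p = 9.7e-06) and the median over the probe sets -0.52 (adjusted p = 0.20). The E10.5 call of the lead probe set was also lost when any 1 of the 6 arrays was left out (adjusted p from 1.9e-05 to 2.2e-04).

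**Figure D3:**
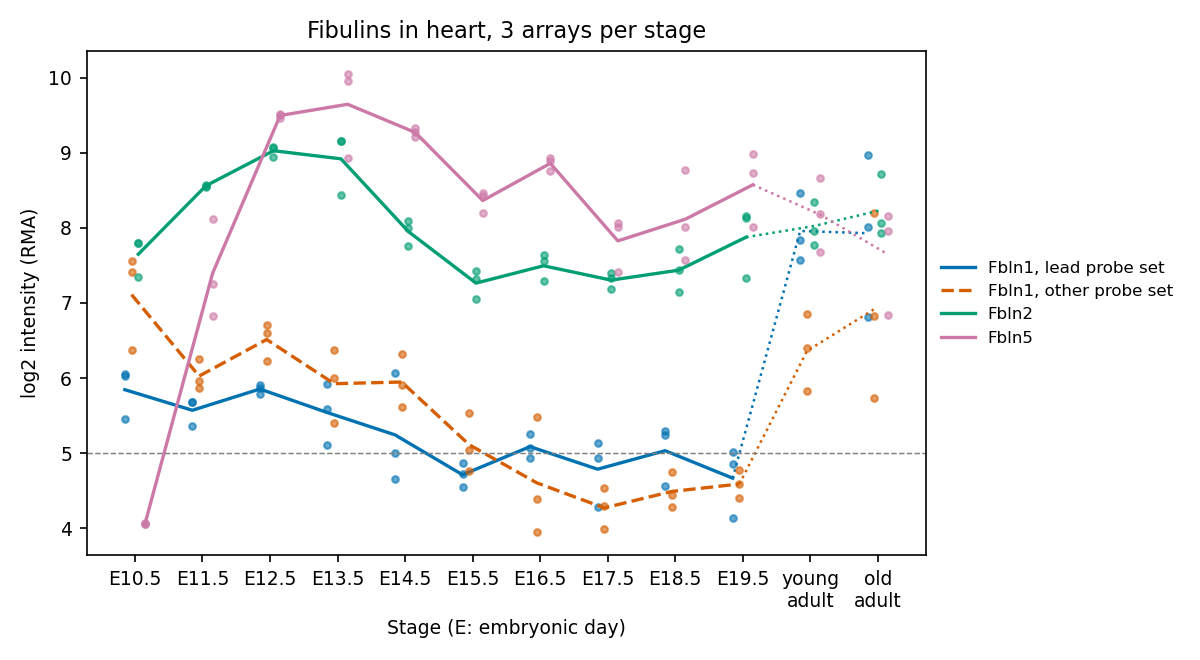
log2 intensity (vertical axis) of Fbln1 (lead probe set, and second probe set dashed), Fbln2 and Fbln5 on each of 3 arrays per stage (points) at 12 stages (horizontal axis), with lines through stage means and a dashed grey line at 5. Fbln5 climbs from 4.07 at E10.5 to 9.49 at E12.5. The lines of the Fbln1 probe sets start at 5.85 and 7.11, cross between E15.5 and E16.5, and stand at 4.67 and 4.59 at E19.5.

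Mfap4, a microfibril-associated protein that binds elastin and collagen, read 4.76, 4.87 and 5.13 on E10.5 arrays, 5.95, 6.32 and 5.84 on E11.5 arrays and 7.23, 7.12 and 7.27 at E12.5. These 3 days did not overlap. From E12.5 the stage means lay between 6.29 and 7.40 until birth, and young adult hearts read 7.85, 7.64 and 8.48, above every embryonic array. Mfap4 was 8.41-fold lower at E10.5 than in young adult (adjusted p = 6.7e-12).

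Mfap5, which encodes a microfibril glycoprotein that also binds fibrillins, was late. It read 3.39, 3.24 and 2.98 at E10.5 and 4.28, 4.39 and 4.24 at E16.5, and then 5.21, 4.98 and 4.26 at E17.5, 6.08, 5.49 and 5.13 at E18.5 and 7.01, 6.83 and 6.33 at E19.5. Only the last of these days passed the milder rule as a step (1.16 from E18.5 to E19.5, adjusted p = 0.011). The E19.5 level did not pass the test against young adult (7.17, 6.97 and 7.71; difference -0.56, adjusted p = 0.082). The second probe set gave -2.55 for E10.5 and -0.61 for E19.5 against young adult.

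Dermatopontin (Dpt), a small matrix protein that binds decorin and collagen and that is widely expressed by fibroblasts, had the widest range. On E10.5 arrays it read 2.39, 2.31 and 2.23, on E11.5 arrays 3.11, 3.13 and 4.90, and later 5.11, 5.37 and 5.44 at E12.5, 7.49, 7.50 and 7.69 at E13.5 and 8.69, 8.64 and 8.29 at E14.5. None of these 5 days overlapped the next. It then rose more slowly to 10.05, 9.92 and 9.95 at E19.5 and 10.50, 10.70 and 11.15 in young adult. The E10.5 level was 355-fold lower than that of young adult and 202-fold lower than that of E19.5 (adjusted p 1.8e-20 and 1.2e-18).

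Matrix Gla protein (Mgp), an inhibitor of calcification in vessel walls and cartilage, rose in an early and a late phase. Readings were 3.72, 4.19 and 3.56 on E10.5 arrays, 5.49, 5.85 and 5.93 on E11.5 arrays and 7.43, 7.80 and 7.55 at E12.5, again with no overlap. Between E13.5 and E18.5 its stage means lay between 7.63 and 8.31, and at E19.5 it read 9.16, 9.27 and 8.17. Young adult hearts read 11.58, 11.51 and 12.02, above every embryonic array, and E19.5 was 7.14-fold lower than young adult (adjusted p = 4.9e-09) and E10.5 236-fold lower (adjusted p = 4.6e-20).

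**Figure D4:**
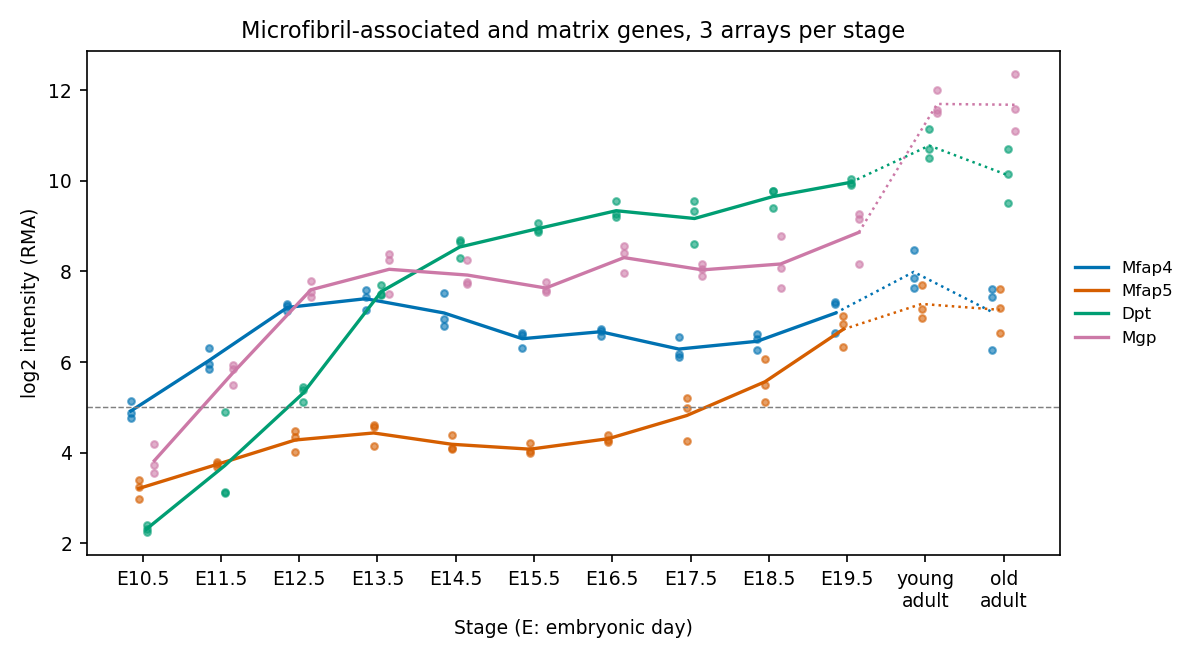
log2 intensity (vertical axis) of Mfap4, Mfap5, Dpt and Mgp on each of 3 arrays per stage (points) at 12 stages (horizontal axis), with lines through stage means and a dashed line at 5. Dpt climbs from 2.31 at E10.5 to 8.54 at E14.5, Mfap5 stays between 3.21 and 4.43 until E16.5 and reaches 6.72 at E19.5, and Mgp climbs again from 8.87 at E19.5 to 11.7 in young adult.

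Placed in time by the milder rule, most steps fell in the first days. From E10.5 to E11.5, 6 of 10 genes rose: Fbln5, Eln, Mgp, Dpt, Mfap4 and Fbln2. Of all probe sets 2.53% passed in either direction, 399 upward and 741 downward. From E11.5 to E12.5, 4 genes rose, Fbln5, Eln, Mgp and Dpt, against 0.0976% of all probe sets in either direction (26 upward and 18 downward). Mfap4 had a step of 1.17 with a limma adjusted p of 0.056. From E12.5 to E13.5 only Dpt rose, by 2.25 (limma adjusted p = 1.3e-04), where 1.25% of all probe sets passed, 229 upward and 336 downward. In the next 5 steps, 0 of 10 genes passed, where 0.0599%, 0.0377%, 0.0111%, 0.0133% and 0% of all probe sets did. From E18.5 to E19.5 only Mfap5 rose, where 1.33% of all probe sets passed, 211 upward and 390 downward. Without adjustment, limma p-values under 0.05 in those 5 steps were reached by Dpt and, downward, Fbln2 from E13.5 to E14.5, by Eln, Fbln2, Fbln5 and Mfap4, all downward, from E14.5 to E15.5, by Mgp from E15.5 to E16.5, by Fbln5 (downward) and Mfap5 from E16.5 to E17.5, and by Mfap5 from E17.5 to E18.5.

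A line through the 10 embryonic stage means gave 4 genes past the stringent rule. Its limit of 2 was applied to the slope times the 9 days from E10.5 to E19.5. Dpt rose by 0.82 per day, Mgp by 0.39, Eln by 0.33 and Mfap5 by 0.28. Of all probe sets 2.45% passed in either direction, 338 upward and 765 downward. The number of the 10 genes called was 2 with the median of all probe sets of a gene, and 1 with the title prefix as a term. That term rests on the E16.5 arrays alone. Several of these courses are not straight, and E10.5 carries much of some slopes. Without E10.5 the slope of Eln was 0.15 and no longer called, that of Fbln5 went from 0.21 to -0.06 and that of Mfap4 from 0.09 to -0.01, while Dpt (0.70), Mfap5 (0.28) and Mgp (0.24) were still called. Without E19.5 the slope of Mfap5 was 0.21 and no longer called. Fbln5 gained the call, with slopes of 0.24 to 0.27, when E12.5, E13.5, E17.5, E18.5 or E19.5 was left out. Fbln1 (-0.13), Fbln2 (-0.12), Fbn1 (-0.07) and Fbn2 (-0.06) had downward slopes that passed only the milder rule, and with the control level as a covariate those of Fbn1 (0.03) and Fbln1 (-0.02, adjusted p = 0.81) did not pass it, while Fbln5 then had a slope of 0.305 (adjusted p = 9.5e-08).

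The levels of cell type markers also differed between stages, some rising and some falling, and their part in these courses was not tested. In RNA from whole hearts, fewer cells of a type and less RNA per cell cannot be told apart. The mean level of 10 fibroblast markers was 7.61 at E10.5 (7.53 to 7.75 on single arrays), 9.03 at E13.5, at least 8.84 on every E19.5 array, and 8.98 in young adult. That of 8 valve cushion markers was 8.40, 8.12, 6.65 and 5.98 at E10.5, E13.5, E19.5 and young adult, that of 8 vascular smooth muscle markers 6.96, 6.70, 6.99 and 7.92, and that of 8 macrophage markers 3.87, 4.96, 5.13 and 7.38. That of 5 adipocyte markers was 2.86, 4.13, 4.92 and 6.71, and that of 8 erythroid markers 7.56, 5.95, 3.48 and 3.55. For 6 pericyte markers it was 6.57, 7.23, 8.185 and 8.03, and for 8 endothelial markers 5.955, 5.88, 6.87 and 7.33. By the stringent rule, 3 of 10 fibroblast markers were lower at E10.5 than at E19.5 and 0 higher (2.18% of all probe sets in either direction). Against young adult, 2 were lower at E10.5 (6.53%), and 1 was lower and 1 higher at E19.5 (1.45%). Of the 8 smooth muscle markers, 2 were lower and 2 higher at E10.5 than at E19.5. Set against young adult, 2 of them were lower and 1 higher at E10.5, and 2 were lower at E19.5. Of the 8 valve cushion markers, 4 were higher at E10.5 than at E19.5 and 5 higher than in young adult. Of the macrophage markers, 6 of 8 were lower at E10.5 and 4 of 8 at E19.5 than in young adult, and 1 was lower at E10.5 than at E19.5. Within stages, the array with the highest control level had the lowest Eln value in 5 of 12 stages and the highest in 4, and the lowest Fbln5 value in 6 and the highest in 1. It was the array of mixed sex, with the lowest values of both genes, at E13.5, E17.5, E18.5 and E19.5, whereas at E16.5 it was the male array, with the highest values of both.

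Few of the genes differed between old and young adult hearts. By the milder rule 2 of 10 genes were lower in old adult, against 6.96% of all probe sets called in either direction, and 0 of 10 passed the stringent rule. Fbn2 was lower by -1.61 (adjusted p = 1.3e-04), with all 3 old arrays (4.06, 3.21 and 3.26) below the young ones (4.38, 5.04 and 5.95), although most of these values lie under 5 and the second Fbn2 probe set differed by -0.08. Mfap4 was lower by -0.88 (adjusted p = 0.029), with 7.44, 6.27 and 7.61 in old against 7.85, 7.64 and 8.48 in young hearts, and the call was lost without the female young adult array (-0.64) or without the old adult array of mixed sex (-0.47). In a fit of the 6 adult arrays alone, neither gene passed (adjusted p 0.13 and 0.30). With the control level as a covariate both passed (-1.44 and -1.05). The second probe set of Fbn1 was lower by -1.23 (adjusted p = 6.9e-04), with 6.42, 6.02 and 5.82 in old against 7.46, 7.73 and 6.77 in young hearts, whereas the lead probe set differed by 0.09, which turned to -0.040 and -0.049 under other scalings. The means of Mgp were 11.7 in both, and Eln (-0.57, adjusted p = 0.27), Fbln5 (-0.53, 0.35) and Dpt (-0.65, 0.19) did not pass. Of 8 vascular smooth muscle markers 4 were lower in old adult hearts, and of 10 fibroblast markers 2.

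The male and the female array of each of 9 stages (E13.5 and later) were set against each other in limma, with stage as a block. At an adjusted p under 0.05, 0 of 10 genes differed, and 0.0488% of all probe sets did. Unadjusted limma p-values were under 0.05 for Fbln1 (-0.29, male minus female) and Mgp (-0.27), with the male array lower in 7 of 9 and 6 of 9 pairs, and their limma adjusted p-values were 0.56 and 0.59. Fbn1 was lower in the male array in 8 of 9 pairs, by a mean of only -0.13, and Eln in 2 of 9 pairs, by a mean of 0.00 (adjusted p 0.83 and 0.99).

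For each gene, the 3 genes outside the set with the most similar course over the 36 arrays were listed by Pearson's r, as a description: arrays share stages, so a high r says only that the stage courses are alike. Nearest to Eln were Lox (r = 0.953), the lysyl oxidase that cross-links it, Col1a2 (0.907) and Postn (0.873). Nearest to Fbln5 were Ltbp3 (0.931), a latent TGF-beta binding protein, Antxr1 (0.903) and Nfib (0.896). Dpt lay nearest to Fabp4 (0.990), Cavin2 (0.969) and Hlf (0.964), and Mgp nearest to F13a1 (0.958), Gsn (0.956) and Ctss (0.956). Fbn2 lay nearest to Kif22 (0.985), Nrk (0.981) and Bex1 (0.980), but over the 30 embryonic arrays alone these fell to 0.761, 0.881 and 0.595.

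The remaining genes had the following neighbours. Fbln1 was nearest to Lrp1 (0.952), Serpinf1 (0.952) and Cd302 (0.949), which over embryonic arrays alone gave 0.768, 0.785 and 0.835. Fbln2 was nearest to Pde1a (0.844), Mrc2 (0.843) and the lysyl oxidase-like gene Loxl1 (0.814). Mfap5 was nearest to Map1lc3a (0.964), Neat1 (0.958) and Pnpla2 (0.958), and Mfap4 to Htra1 (0.897), Bicc1 (0.895) and Islr (0.824). Fbn1 was nearest to Ap2a2 at 0.859, Cthrc1 at 0.844 and Tcf12 at 0.838.

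Of 36 other genes of elastic fibres, listed by role from general knowledge, 34 were on the array. Between E10.5 and young adult, 10 passed the stringent rule, 4 higher and 6 lower at E10.5, with a median log2 difference of -0.78 over the 34. Between E19.5 and young adult it was 3, with a median of -0.09, and between E10.5 and E19.5 it was 4, all lower at E10.5, with a median of -0.46. The background shares are those given above for the same comparisons.

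Of the 6 cross-linking genes, Lox was low at E10.5 and higher through fetal life: its mean began at 4.59 (SD 0.43, n = 3), stood at 7.62 (SD 0.04) by E12.5 and 7.62 (SD 0.57) by E19.5, and was 5.15 (SD 0.53) in young adult. It was lower by -3.03 at E10.5 than at E19.5 and higher by 2.47 at E19.5 than in young adult (adjusted p 6.7e-10 and 4.2e-08). Unlike that of Eln, its E10.5 level did not pass either rule against young adult (-0.57, adjusted p = 0.083). Loxl2 was instead highest early, 2.80 above young adult at E10.5 (adjusted p = 3.5e-07), as was Atp7a, the copper transporter that loads lysyl oxidases, by 2.51 (adjusted p = 1.4e-14). By the milder rule, 1 of the 34 genes was higher in old than in young adult hearts, Atp7a by 1.03 (adjusted p = 1.6e-04). The 2 lower ones were Adamts10 (-0.79, adjusted p = 0.011) and Adamtsl2 (-0.64, adjusted p = 0.014). Of all probe sets, 6.96% passed in either direction.

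Of the 4 other fibulins measured, only Efemp1 (fibulin 3) passed, with differences from young adult of -2.23 at E10.5 and -2.77 at E19.5 (adjusted p 3.4e-07 and 2.2e-08). Of 16 further genes listed with the microfibrils, not all of them parts of one, Adamtsl5 (-3.99), Ltbp2 (-2.93), Mmrn1 (-2.70) and Adamtsl4 (-2.16) were lower at E10.5 than in young adult. Adamts6 (2.66) and Emilin2 (2.60) were higher. Adamts6 was still higher at E19.5 (2.62, adjusted p = 3.6e-10). Mfap2 kept stage means between 5.76 and 6.95 and was called in neither comparison. Of 8 proteases that can cut elastin, only Ctss was called, lower by -3.64 at E10.5 than in young adult (adjusted p = 3.8e-14), with means of 3.15 (E10.5), 5.29 (E19.5) and 6.79 (young adult). Ctss is also abundant in macrophages, whose markers moved the same way, and their part in it was not tested.

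**Figure D5:**
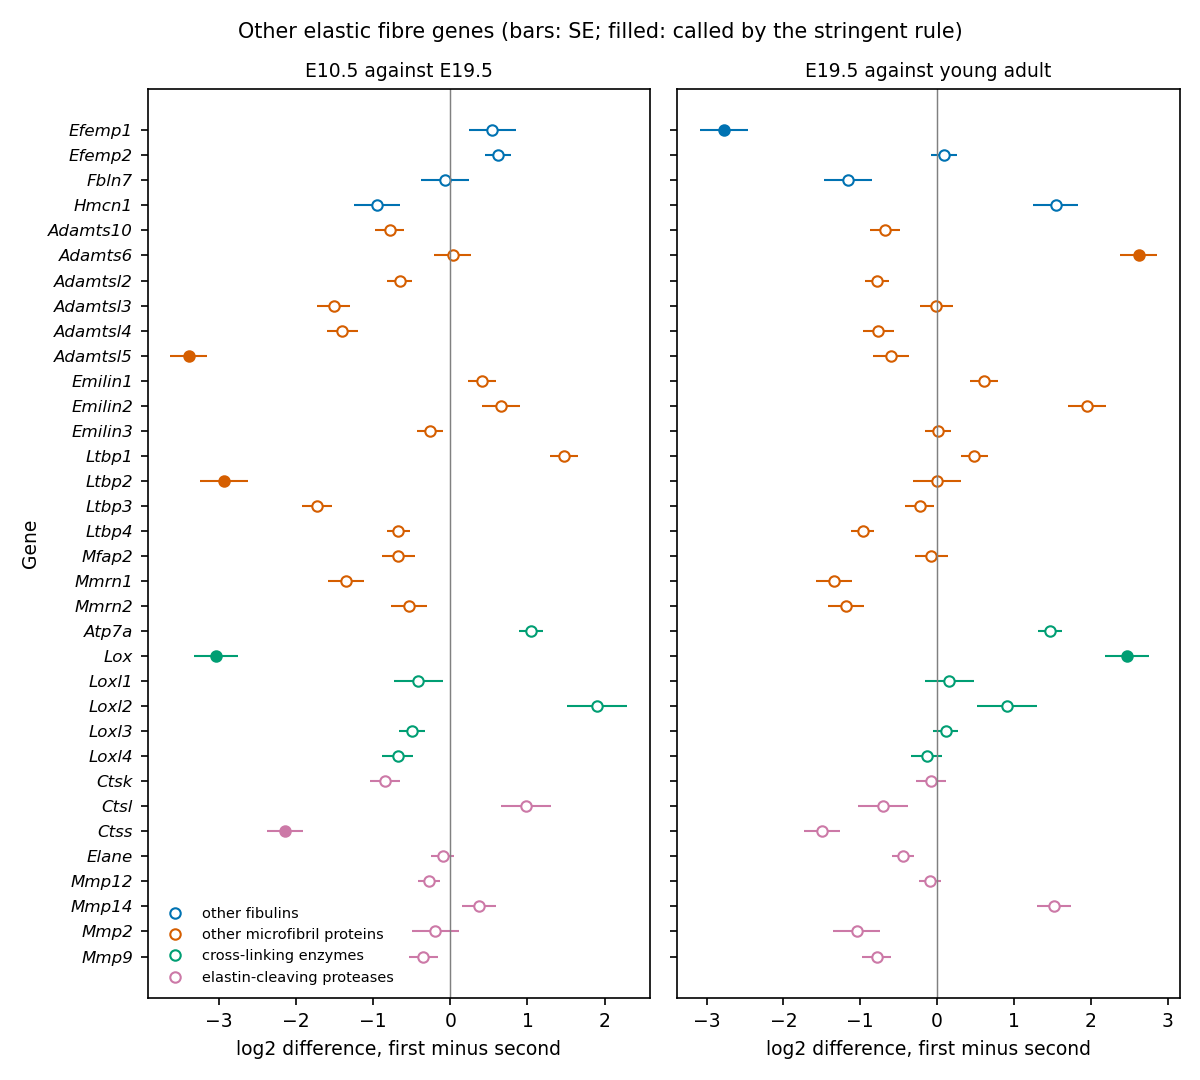
log2 difference (horizontal axis, with SE bars) of 34 other elastic fibre genes (vertical axis, coloured by role) between E10.5 and E19.5 on the left and between E19.5 and young adult on the right, filled where the stringent rule was met. Lox is filled on both sides, at -3.03 and 2.47, and Adamtsl5 (-3.39), Ltbp2 (-2.93) and Ctss (-2.14) are filled on the left.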

How the data were processed

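Poly(A) RNA of 36 heart samples was measured on 1-colour Affymetrix Mouse430 2.0 arrays. The authors deposited log2 intensities made by robust multi-array average (RMA: background subtraction, quantile normalization and a summary per probe set); the submitters' processing notes also name Affymetrix Expression Console and Partek 6.6. These values were used without further scaling. Symbols are those of the deposited annotation. The genes and the lists of other elastic fibre genes and cell type markers, taken from general knowledge, were chosen with earlier results of these data known. Groups followed the stage in the sample labels.

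Stage means were fitted with limma 3.58.1 in R 4.3.3, in 1 model on all 45101 probe sets, with Benjamini-Hochberg adjustment within each comparison; all stages share 1 estimate of the spread, which covers the spread between these samples. The fit recovered known changes when tested on simulated data. These had large changes in well expressed probe sets and independent noise, without array-wide or sex effects, so the test cannot show how the calls stand up to those. All 10 members were named. Of the other elastic fibre genes called, up to 8 with the largest absolute log2 difference were named. This was done separately in E10.5 against young adult and E19.5 against young adult. Adamtsl4, Mfap2, Adamts10 and Adamtsl2 were chosen after their values were seen. Neighbours were the 3 genes of highest r among expressed probe sets. Alternatives concerned scaling, the expression filter and its place, the fold limit, the variance prior, the arrays fitted, the probe set of a gene, the control level and the title prefix as terms, a sex or number block, and leaving out each array. Leaving each stage out of the embryonic line was added after seeing the data.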

Additional observations from a re-analysis of the deposited data

How the results depend on the processing

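Of 630 differences of single genes under alternative settings, 582 kept their direction and their side of the threshold, 21 lost the call, 2 gained it and 25 turned in direction; none of those that turned was past the stringent rule in the reported fit, and the largest was 0.70. Scaling turned Fbn2 between E10.5 and E19.5 (-0.095 after quantile renormalization, -0.16 after centring) and Fbn1 between old and young adult (-0.040 and -0.049). The median of all probe sets turned Fbn1 (-0.58), Fbln1 (0.56) and Mfap5 (0.061) between old and young adult. The hybridization control level as a covariate turned Fbn1 at E10.5 (-0.79) and Fbln5 at E19.5 (-0.30) against young adult and Fbn1 in old adult (-0.43), and the title prefix turned Fbn1 between E10.5 and E19.5 (0.064). Leaving out single arrays gave -0.345 to 0.010 for Fbn1 between E10.5 and E19.5, -0.29 to 0.12 for Fbln2 at E19.5, and in old adult -0.094 to 0.41 for Fbn1, -0.55 to 0.53 for Fbln1, -0.027 to 0.37 for Fbln2, -0.36 to 0.12 for Mfap5 and -0.36 to 0.28 for Mgp. The cause was not tested.

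The number of genes called between old and young adult was 2, but 0 with the 6 adult arrays alone, 0 with the sex label as a replicate block on them, and 1 to 2 when leaving out single arrays. With the median of all probe sets, 2 genes rather than 4 were called between E19.5 and young adult, as Eln (1.68) and Fbln1 (-1.68) no longer passed, and 2 rather than 4 along the embryonic line. For Eln that median averages the lead with a probe set whose stage means were all under 5. With the title prefix as a term on the lead probe sets, 1 gene was called along that line. The titles change at the E16.5 female array, and whether this marks a batch was not stated. Only at E16.5 does the prefix vary within a stage, so its term rests on that female array against the male and mixed ones. Calls lost with this term can reflect lost precision, and the term cannot be told apart from sex. The E10.5 to E11.5 step gave 6 genes, 5 on the 6 arrays of these days alone and 3 with the replicate block on them. Same-numbered arrays of E10.5 and E11.5 correlated at 0.22, -0.25 and 0.17 after subtracting stage means. With 3 arrays per stage, these values cannot decide whether the numbers pair the arrays.

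Further calls that depended on a setting were Fbln1 at E10.5 (-1.87, adjusted p = 0.031, with the title prefix, and 9.7e-05 with the compared stages alone), Mgp at E19.5 (2.3e-05 with the compared stages alone), Mfap4 at E10.5 against young adult (1.0e-05 with the title prefix) and against E19.5 (8.6e-05 with the compared stages alone, 0.0026 with the title prefix), and Eln at E10.5, which passed after centring (-2.18). With 3 arrays per stage and no detection calls, differences among values under 5 are uncertain.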
